A study of Mus musculus with 16 samples.

Results

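Intraflagellar transport (IFT) carries protein cargo along the axoneme of the cilium. Trains built of the IFT-A and IFT-B complexes move out to the ciliary tip on kinesin-2 and return to the base on dynein-2. IFT-B divides into a core, IFT-B1, and a peripheral part, IFT-B2. A cell that leaves the division cycle can assemble a primary cilium, which vertebrate Hedgehog signalling needs, and a dividing cell takes it down before mitosis.

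The 10 genes described here are Ift122 of IFT-A, Ift27, Ift46, Ift52, Ift74, Ift81 and Ift88 of IFT-B1, and Ift20, Ift57 and Ift80 of IFT-B2. They were taken by symbol from the 16590 genes with a probe on the array, and they were picked on measured values, because genes with an Ift symbol were lower with anti-MYF5 than with control IgG in both media. The anti-MYF5 over IgG values of these genes, and the difference of these values between the media, are therefore a description. No conclusion is drawn from a test of them. The 10 genes had 18 probes. Of these, 13 probes of 8 genes were detected (detection p under 0.05) on all 16 arrays and were tested, some of them dim. The single probes of Ift46 and Ift74 and 3 of the 4 probes of Ift57 were detected on no array.

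The RNA came from C2C12, a single mouse myoblast line that stops dividing and forms fused myotubes in low serum. It was recovered from cytoplasmic extracts with beads that carried an antibody to MYF5, a muscle basic helix-loop-helix transcription factor, or control IgG, and was amplified from an oligo-dT primer. There were 4 arrays each for anti-MYF5 in differentiation medium (DM, 2% horse serum), IgG in DM, anti-MYF5 in growth medium (GM, 10% fetal bovine serum) and IgG in GM. No source used here says that the 4 replicates were separate cultures, so a p-value measures the spread between these samples, which may be technical.

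The extracts themselves were not analysed here, so recovery by the beads and abundance in the cell cannot be told apart. In these bulk extracts, fewer cells of a type and less RNA per cell cannot be told apart either. Values are log2 signals after background correction and quantile normalization, so that a change is measured against the rest of the array. A gene is called when limma's p-value, adjusted by Benjamini-Hochberg over all 13884 tested probes, is under 0.05, and a gene stands by its tested probe with the highest mean.

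The arrays had mean signals of 324 to 581 and detected 46.4% to 50.9% of probes. Arrays of a group correlated at 0.986 to 0.998 over all probes. The log2 difference between the brightest and the dimmest probe of Actb, a rough sign of RNA or labelling quality, was 2.61 ± 0.76 with anti-MYF5 in DM, 4.73 ± 0.81 with IgG in DM, 3.94 ± 0.52 with anti-MYF5 in GM and 6.42 ± 1.53 with IgG in GM (SD, n = 4 each). It moved with both the antibody and the medium, and its part in the results below was not tested. Of 13 myoblast and myotube markers with a probe, 11 were tested, 11 rose in DM with anti-MYF5 and 10 rose with IgG. Over all tested genes 28.9% rose with anti-MYF5 and 29.5% with IgG. The Myf5 probe was detected on 1 array and that of Pax7 on none. The summed signal of the 18 marker probes was 71000 to 96400 with anti-MYF5 in DM, 124000 to 141000 with IgG in DM, 3870 to 6650 with anti-MYF5 in GM and 5150 to 6370 with IgG in GM.

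Of the markers of multiciliated cells, another possible source of IFT RNA, 12 genes had a probe and 5 were tested. The tested markers were Foxj1, Dnaic1, Rsph1, Rsph9 and Tppp3, detected on 9, 7, 15, 16 and 16 of the 16 arrays. Tekt1, Dnah5, Ccdc39, Ccdc40, Spag6l and Mcidas were detected on no array and Hydin on 1. Dnaic1, a dynein arm chain, was at least 1.6-fold higher in DM with IgG (adjusted p = 2.5e-08), where no GM array detected it, while Tppp3 fell in DM with both antibodies (log2 -1.62 with anti-MYF5, adjusted p = 4.4e-05, and -1.67 with IgG, adjusted p = 3e-05). The summed signal of the 15 marker probes was 930 to 1030 with anti-MYF5 in DM, 1100 to 1200 with IgG in DM, 1130 to 1470 with anti-MYF5 in GM and 1380 to 1490 with IgG in GM. With anti-MYF5, 3 of the 5 tested markers were lower than with IgG in DM (Rsph1, Rsph9 and Dnaic1) and 2 of 5 in GM (Rsph1 and Rsph9). Over all tested genes 26.6% were lower in DM and 22.4% in GM. The part of multiciliated cells in the results below was not tested.

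RFX transcription factors switch on many cilium genes through the X-box, a pair of inverted arms. RefSeq promoter windows (GRCm38.p6, 250 bases before to 50 after the gene start) were held for 7 of the 10 genes: Ift20, Ift27, Ift46, Ift52, Ift57, Ift74 and Ift88. The X-box was searched on both strands as GTNNCC and GGNNAC separated by 0 to 3 bases. It lay in 1 of the 7 windows, against 3.86% of 32851 windows of all genes. The window of Ift57 (chr16:49699044-49699343, plus strand) held 2 of them, which are shown because they are the only full matches among the members. The first lies 87 to 74 bases and the second 60 to 48 bases before the start, and the capitals mark the X-box:
Ift57 first X-box: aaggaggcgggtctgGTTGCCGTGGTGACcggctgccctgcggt
Ift57 second X-box: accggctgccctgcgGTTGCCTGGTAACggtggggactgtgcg

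The arm GTTGCC alone, which both of these X-boxes contain, was found on either strand in 3 of the 7 windows (Ift27, Ift57 and Ift88), against 12.5% of all windows. In Ift27 (chr15:78174032-78174331, minus strand), whose signal differed most between the antibodies, it lay 9 to 4 bases before the start, in capitals:
Ift27 arm: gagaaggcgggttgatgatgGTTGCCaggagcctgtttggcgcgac
The E-box CAGCTG, a form that myogenic bHLH factors bind, was in 0 of the 7 windows, against 16.3% of all windows. A match is a description of the letters and says nothing of binding, and these arrays measured RNA recovered from cytoplasm, not DNA.

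Across the 4 groups the 13 tested probes had few orders. The mean was highest with IgG in DM for 8 probes, with IgG in GM for 3 and with anti-MYF5 in GM for 2. It was lowest with anti-MYF5 in GM for 11 of the 13. Averaged over the 8 genes, each centred on its own mean, the arrays lay at -0.16, -0.19, -0.18 and -0.09 with anti-MYF5 in DM, 0.38, 0.30, 0.33 and 0.43 with IgG in DM, -0.49, -0.24, -0.45 and -0.22 with anti-MYF5 in GM, and 0.20, 0.11, 0.07 and 0.19 with IgG in GM (log2). The 4 groups did not overlap in this mean, which is a description because the genes were picked on the antibody difference.

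**Figure D1:**
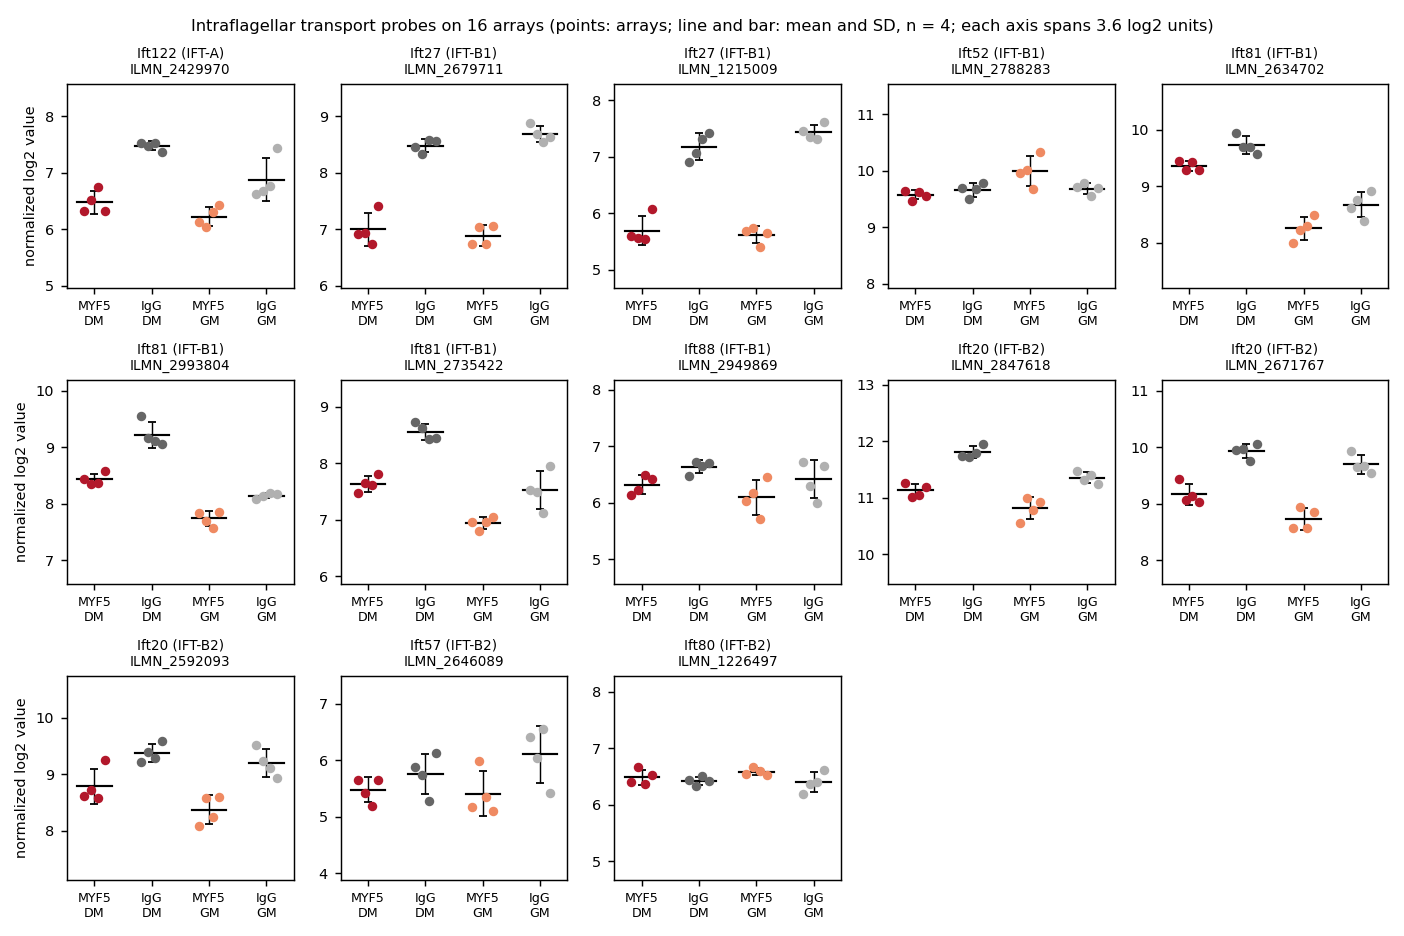
Normalized log2 value (vertical axis) of the 13 tested probes on each of the 16 arrays, with 1 panel a probe and the groups in the order anti-MYF5 DM, IgG DM, anti-MYF5 GM and IgG GM. Points are arrays, the line is the mean and the bar the SD (n = 4). In the Ift27 panels both anti-MYF5 groups lie below both IgG groups, in the Ift81 panels the DM groups lie above the GM groups of the same antibody, and the Ift80 panel is nearly flat.

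Ift122 is a core subunit of IFT-A, the complex that works in return transport and in bringing membrane proteins into the cilium. It was the one IFT-A gene among the 10. Its log2 value was 6.32, 6.52, 6.75 and 6.32 with anti-MYF5 in DM, against 7.53, 7.48, 7.53 and 7.36 with IgG in DM. In GM it was 6.13, 6.03, 6.31 and 6.42 with anti-MYF5, against 6.63, 6.67, 6.76 and 7.44 with IgG. All anti-MYF5 arrays were below all IgG arrays of the same medium, and 1 IgG array in GM stood above the other 3. The log2 fold change of anti-MYF5 over IgG was -0.99 (SE 0.16) in DM and -0.65 (SE 0.16) in GM.

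In IgG precipitates Ift122 rose in DM by 0.60 (log2, SE 0.16, adjusted p = 0.0026), a 1.51-fold difference, although 1 IgG array in GM reached the DM range. With anti-MYF5 the DM over GM change was 0.26 (95% interval -0.08 to 0.59, adjusted p = 0.17). The DM minus GM difference of anti-MYF5 over IgG was -0.34, and -0.80 without scaling between arrays.

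Ift27, a small GTPase of the Rab family, sits at the edge of IFT-B1 and works with the BBSome in taking membrane proteins out of the cilium. Of the 10 genes it had the largest antibody difference. Its brighter probe read 6.92, 6.94, 6.73 and 7.41 with anti-MYF5 in DM, against 8.45, 8.33, 8.58 and 8.56 with IgG in DM. In GM it read 6.73, 7.04, 6.73 and 7.05 with anti-MYF5, against 8.88, 8.68, 8.55 and 8.63 with IgG. The antibodies were separated by a gap in both media, while the media overlapped within each antibody.

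The log2 fold change of Ift27 over IgG was -1.48 (SE 0.14) in DM, a 2.79-fold lower signal with anti-MYF5, and -1.80 (SE 0.14) in GM, 3.48-fold lower. The second Ift27 probe, ILMN_1215009, gave -1.48 in DM and -1.81 in GM. Its deposited signal with anti-MYF5 was dim, at 84 to 115.7. Under other processing its values shrank to as little as -0.96 in DM and -1.20 in GM. Within an antibody, DM over GM was 0.12 (95% interval -0.18 to 0.41, adjusted p = 0.49) with anti-MYF5 and -0.21 (95% interval -0.50 to 0.09, adjusted p = 0.21) with IgG.

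Ift81 pairs with Ift74 in a coiled coil, and in human proteins the pair binds tubulin, the main cargo of a growing cilium. Its 3 probes were ordered by medium first. Probe ILMN_2634702 read 9.45, 9.28, 9.43 and 9.28 with anti-MYF5 in DM, against 8.0, 8.23, 8.29 and 8.49 with anti-MYF5 in GM. With IgG it read 9.95, 9.69, 9.69 and 9.57 in DM, against 8.62, 8.75, 8.39 and 8.92 in GM. No GM array of either antibody reached the DM arrays.

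Ift81 rose in DM by 1.11 (log2, SE 0.13, adjusted p = 1.5e-07) with anti-MYF5, 2.16-fold, and by 1.05 (SE 0.13, adjusted p = 3.1e-07) with IgG, 2.08-fold. The other probes, ILMN_2993804 and ILMN_2735422, rose by 0.70 and 0.69 with anti-MYF5 (adjusted p = 2.9e-05 and 2.8e-04) and by 1.08 and 1.03 with IgG (adjusted p = 7.2e-08 and 2.1e-06). Anti-MYF5 over IgG differed between the probes: in DM it was -0.36, -0.79 and -0.92, and in GM -0.42, -0.41 and -0.58. In GM the first 2 of these values came to -0.02 and -0.01 without scaling between arrays. The single Ift74 probe, ILMN_2647044, stayed at background in every group, with a deposited signal of 52.5 to 77.5, so the partner of Ift81 could not be followed.

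Ift52 is a scaffold of the IFT-B1 core that binds Ift88. It did not share the antibody difference of Ift27. It read 9.64, 9.46, 9.63 and 9.56 with anti-MYF5 in DM, against 9.95, 10.02, 9.67 and 10.33 with anti-MYF5 in GM. With IgG it read 9.70, 9.49, 9.67 and 9.78 in DM, against 9.71, 9.78, 9.55 and 9.69 in GM. The anti-MYF5 arrays in GM stood above those in DM, and the IgG arrays overlapped.

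Ift52 fell in DM with anti-MYF5, by 0.42 on the log2 scale (SE 0.12, adjusted p = 0.0043). With IgG the change was -0.02 (95% interval -0.27 to 0.23, adjusted p = 0.90). Anti-MYF5 over IgG was -0.09 (SE 0.12) in DM and 0.31 (SE 0.12) in GM. The DM minus GM difference of these was -0.40 (SE 0.17).

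Ift88, known as polaris, is an IFT-B1 protein without which mouse cells do not form cilia. It read 6.14, 6.22, 6.50 and 6.42 with anti-MYF5 in DM, against 6.47, 6.72, 6.65 and 6.71 with IgG in DM. In GM it read 6.04, 6.17, 5.72 and 6.46 with anti-MYF5, against 6.72, 6.30, 6.0 and 6.66 with IgG. All neighbouring groups overlapped. Anti-MYF5 over IgG was -0.32 (SE 0.17) in both media, and in GM it turned to 0.08 without scaling between arrays. DM over GM was 0.22 with either antibody (adjusted p = 0.25 with anti-MYF5 and 0.26 with IgG). With IgG it was 0.56 (adjusted p = 0.0068) under median scaling.

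Ift46, an IFT-B1 subunit known as an adaptor for outer dynein arms in Chlamydomonas, stayed at background, with a deposited signal of 53.2 to 81.8.

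Ift20 of IFT-B2 is also found at the Golgi, where it takes part in sending membrane proteins to the cilium. It was measured by 3 probes. Probe ILMN_2847618 read 11.27, 11.02, 11.06 and 11.20 with anti-MYF5 in DM, against 11.74, 11.73, 11.80 and 11.96 with IgG in DM. In GM it read 10.56, 11, 10.79 and 10.93 with anti-MYF5, against 11.47, 11.32, 11.40 and 11.25 with IgG. IgG stood above anti-MYF5 within each medium and DM above GM within each antibody, with no overlap in any of these 4 pairs of groups.

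Anti-MYF5 over IgG of Ift20 was -0.67, -0.76 and -0.58 for the 3 probes in DM, and -0.54, -0.96 and -0.83 in GM. With anti-MYF5 it rose in DM on all 3 probes, by 0.32, 0.44 and 0.42 (adjusted p = 0.012, 0.0046 and 0.028). With IgG it rose by 0.45 on the brightest probe (adjusted p = 8.9e-04), while the other probes gave 0.23 and 0.17 (adjusted p = 0.11 and 0.36). The call with anti-MYF5 depended on the scaling: all 3 probes lost it under median scaling (0.10, 0.26 and 0.25, adjusted p = 0.68, 0.32 and 0.35) and without scaling (adjusted p = 0.76, 0.42 and 0.43). Without anti-MYF5 GM replicate 1 it was lost on the brightest probe (0.23, adjusted p = 0.062) and on ILMN_2592093 (0.32, adjusted p = 0.11), which also lost it without anti-MYF5 GM replicate 3 (adjusted p = 0.076) or anti-MYF5 DM replicate 4 (adjusted p = 0.14).

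Ift57, also called Hippi, forms a coiled coil with Ift20 in IFT-B2. Its 1 detected probe, ILMN_2646089, was dim and scattered. It read 5.65, 5.42, 5.19 and 5.66 with anti-MYF5 in DM, against 5.88, 5.74, 5.28 and 6.13 with IgG in DM. In GM it read 5.17, 5.98, 5.36 and 5.11 with anti-MYF5, against 6.41, 6.05, 6.55 and 5.42 with IgG. The groups overlapped in every comparison.

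Anti-MYF5 over IgG of Ift57 was -0.28 (SE 0.23) in DM and -0.70 (SE 0.23) in GM. DM over GM was 0.08 with anti-MYF5 (adjusted p = 0.79) and -0.35 with IgG (adjusted p = 0.19). With IgG it was -0.58 (adjusted p = 0.016) without IgG GM replicate 4. The other 3 Ift57 probes read 50.7 to 79.4 in deposited signal and were detected nowhere.

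Ift80, a protein with WD40 repeats in IFT-B2, is mutated in a human skeletal ciliopathy. It read 6.39, 6.66, 6.37 and 6.52 with anti-MYF5 in DM, against 6.43, 6.33, 6.51 and 6.41 with IgG in DM. In GM it read 6.54, 6.66, 6.59 and 6.53 with anti-MYF5, against 6.19, 6.36, 6.40 and 6.62 with IgG. The groups overlapped in every comparison. Anti-MYF5 over IgG was 0.07 (SE 0.12) in DM, where it was -0.03 under median scaling, and 0.18 (SE 0.12) in GM. DM over GM was -0.09 (95% interval -0.34 to 0.15, adjusted p = 0.52) with anti-MYF5 and 0.02 (95% interval -0.22 to 0.27, adjusted p = 0.88) with IgG.

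**Figure D2:**
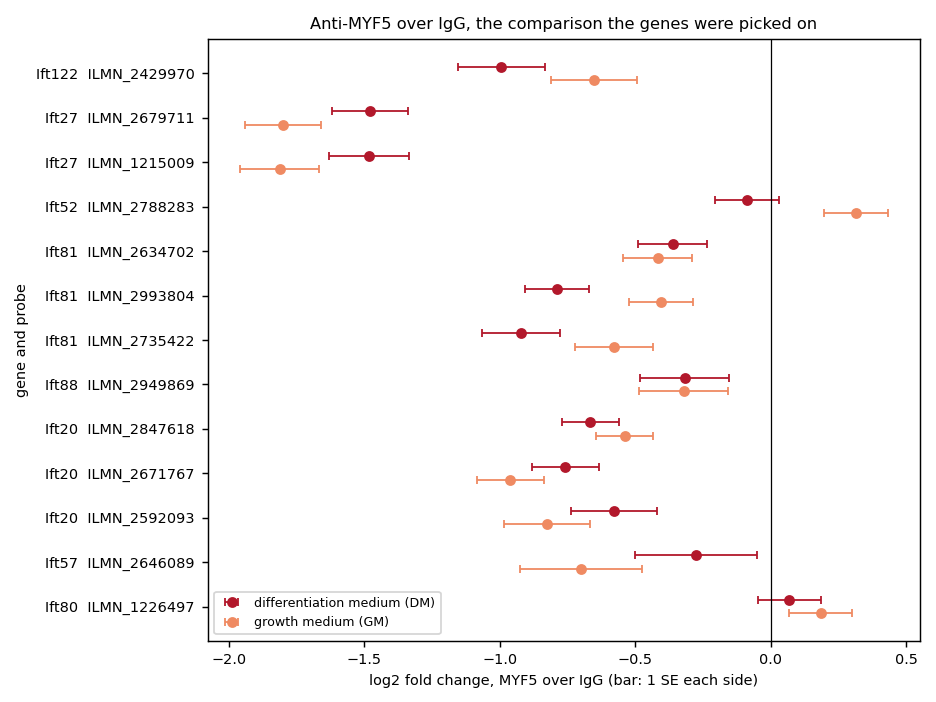
Log2 fold change of anti-MYF5 over IgG (horizontal axis) for the 13 tested probes in DM and in GM, with bars of 1 SE each side. The genes were picked on this difference. Ift27 lies furthest left, at -1.48 in DM and -1.80 in GM, Ift80 lies at 0.07 in DM and 0.18 in GM, and Ift52 at -0.09 in DM and 0.31 in GM.

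In both media anti-MYF5 lay below IgG with no overlap for Ift122, each Ift27 probe and most probes of Ift20 and Ift81. The groups of Ift52, Ift57, Ift80 and Ift88 overlapped in both media. Over all 9429 tested genes the share called lower with anti-MYF5 was 26.6% in DM and 22.4% in GM, and the share called higher was 27.7% in DM and 26.3% in GM. The genes were picked on these comparisons, so no count of members is set beside these shares. The median log2 fold change of the 8 genes was -0.34 in DM and -0.48 in GM, against 0.02 and 0.04 over all genes. Without scaling between arrays the median of all genes in GM was itself 0.32, and that of the 8 genes was -0.10.

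By subcomplex, the anti-MYF5 over IgG value in DM was -0.99 for the IFT-A gene Ift122, while the median was -0.34 over the 4 IFT-B1 genes and -0.28 over the 3 IFT-B2 genes. In GM it was -0.65 for Ift122, -0.37 over IFT-B1 and -0.54 over IFT-B2. These medians take the probe with the highest mean for each gene, and the other Ift81 probes gave -0.79 and -0.92 in DM. Outside the 10 genes, the IFT-A genes Ift140 and Ift43 gave -0.70 and -0.61 in DM, and the second Ift140 probe gave -0.07. No difference between the subcomplexes was tested. Each of IFT-B1 and IFT-B2 held both a gene that was lower in both media (Ift27 and Ift20) and one near 0 in DM (Ift52 and Ift80).

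The medium comparisons were not used to pick the genes, although they share the same arrays. With anti-MYF5, 2 of the 8 genes rose in DM (Ift81 and, with quantile normalization but not under median scaling or without scaling, Ift20) and 1 fell (Ift52), against 28.9% of all genes higher and 32.7% lower. With IgG, 3 rose (Ift20, Ift81 and Ift122) and 0 fell, against 29.5% higher and 34% lower. No member had an unadjusted limma p under 0.05 for a fall with IgG, while the share of all genes at that unadjusted threshold is not given here. The members' median was 0.17 with anti-MYF5 and 0.12 with IgG, against -0.06 over all genes with either antibody. With quantile normalization and anti-MYF5, every probe of Ift20 and Ift81 rose. With IgG every Ift81 probe rose, as did Ift122 and the brightest Ift20 probe, while the other Ift20 probes did not pass. By gene, the shares that rose are near the background, and the share that fell is below it in both precipitates, a difference that was not tested.

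**Figure D3:**
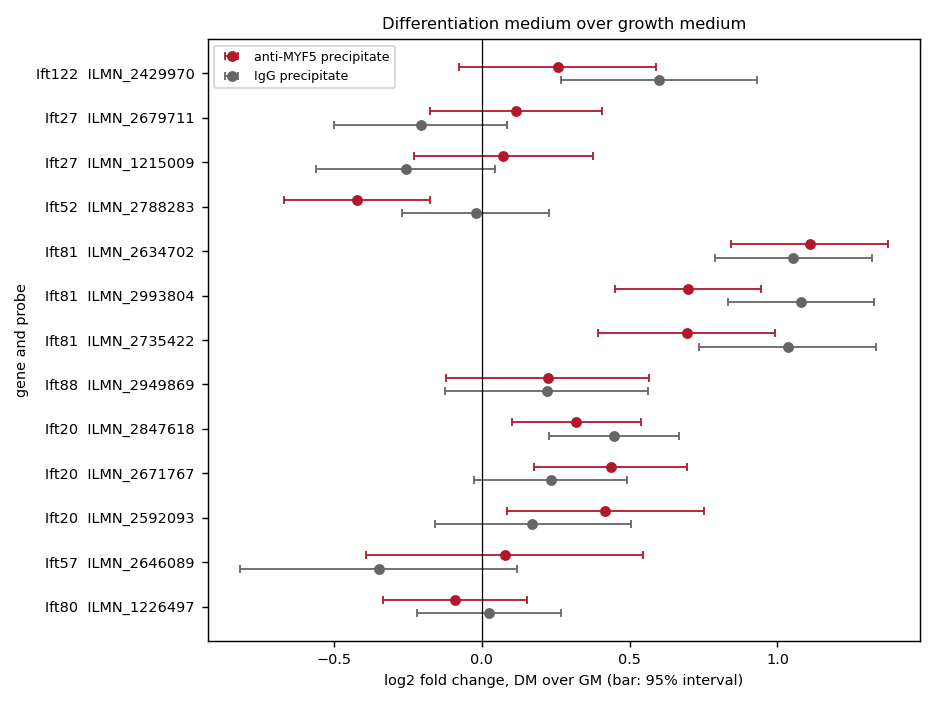
Log2 fold change of DM over GM (horizontal axis) for the 13 tested probes in the anti-MYF5 and the IgG precipitates, with 95% intervals. The 3 Ift81 probes lie furthest right, between 0.69 and 1.11, and Ift52 with anti-MYF5 is the only point left of 0 whose interval does not reach 0.

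The DM minus GM difference of anti-MYF5 over IgG is made of the 2 values the genes were picked on, so nothing is read from it about the members. It passed the adjusted threshold for 0 of the 8 genes (limma), against 5.78% of all genes. The members' median of this difference was -0.06, against 0.01 over all genes. For Ift27, with the largest anti-MYF5 over IgG values, it was 0.32.

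The other subunits of the 2 complexes were followed by a list. Of the other IFT-A subunits, 5 had a probe and 2 were tested. Ift43 rose in DM by 0.40 with anti-MYF5 (adjusted p = 0.011) and by 0.54 with IgG (adjusted p = 0.001). Ift140 gave -0.06 with anti-MYF5 and 0.07 with IgG (adjusted p = 0.74 and 0.65). Wdr19, Wdr35 and Ttc21a were detected on 0, 3 and 1 of the 16 arrays.

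Of the other IFT-B subunits, 8 had a probe and 5 were tested. Ift172, which is needed at the tip for trains to turn, rose in DM by 0.94 with anti-MYF5 (SE 0.18, adjusted p = 1.6e-04) and by 1.41 with IgG (SE 0.18, adjusted p = 9.4e-07), and its other 2 probes rose as well. Ift22, Ttc26 and Cluap1 passed in neither precipitate, with values of 0.22, 0.33 and -0.22 with anti-MYF5 and -0.17, 0.19 and -0.12 with IgG. Traf3ip1, the mouse IFT54 gene, fell in DM with anti-MYF5 (-0.29, adjusted p = 0.049). It was detected on no IgG array in GM, and its IgG arrays in DM did not exceed the lowest detected signal there on average, so no IgG change is given. The 3 Ttc30 genes were detected nowhere.

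Of these subunits, the 4 with an Ift symbol belong to the family the choice was made on. Their anti-MYF5 over IgG values in DM were -0.70 for Ift140, -0.61 for Ift43, -1.02 for Ift172 and -0.92 for Ift22. In GM they were -0.57, -0.47, -0.55 and -1.30, given with no test. The second Ift140 probe, ILMN_3137478, read -0.07 in DM and 0.05 in GM.

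The 3 tested IFT-B genes that carry another symbol were not part of that choice. Cluap1, the IFT38 gene, was lower with anti-MYF5 in both media (-0.83 in DM, adjusted p = 2.2e-04, and -0.73 in GM, adjusted p = 8.7e-04). Ttc26, the IFT56 gene, was higher in both (0.66 in DM, adjusted p = 0.0011, and 0.51 in GM, adjusted p = 0.008). Traf3ip1 was higher in both, by 0.31 in DM (adjusted p = 0.041) and at least 1.51-fold in GM (adjusted p = 1.6e-06), where no IgG array detected it. So 1 of these 3 was lower and 2 were higher. Over all genes 26.6% were lower and 27.7% higher in DM, and 22.4% and 26.3% in GM.

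The motors that move the trains formed a list of 9 tested genes. In DM 5 of the 9 rose with anti-MYF5 (median 0.43), against 28.9% of all genes, and 6 rose with IgG (median 0.87), against 29.5%. None was called lower, against 32.7% of all genes with anti-MYF5 and 34% with IgG. Kif17 passed the threshold with anti-MYF5 as well but is not counted there, because no GM array detected it and its DM signal gave no fold above 1 over the lowest detected signal. Kif3a, a motor subunit of kinesin-2, rose by 0.57 with anti-MYF5 (adjusted p = 3.5e-04) and by 0.89 with IgG (adjusted p = 1.8e-06). Kifap3, its cargo-binding partner, rose by 1.10 with anti-MYF5 (adjusted p = 2.4e-06) and by 0.93 with IgG (adjusted p = 1.9e-05). Dync2li1 and Wdr60, a light intermediate and an intermediate chain of dynein-2, rose by 0.94 and 0.64 with anti-MYF5 and by 0.90 and 0.87 with IgG. Kif3c rose by 0.43 with anti-MYF5 and by 0.52 with IgG, although its DM and GM arrays overlapped with each antibody. The second Kif3c probe, ILMN_2590729, gave 0.27 with anti-MYF5 (adjusted p = 0.17) and 0.40 with IgG (adjusted p = 0.041).

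Kif3b, Wdr34 and Tctex1d2 passed in neither precipitate, with values of 0.29, 0.15 and 0.11 with anti-MYF5 and 0.26, 0.03 and -0.19 with IgG. Kif17, a second ciliary kinesin-2, was at least 2.1-fold higher in DM with IgG (adjusted p = 1.1e-09), where no GM array detected it. For anti-MYF5 over IgG, 3 of the 9 motors were lower and 1 higher in DM, and 2 lower and 1 higher in GM. Over all genes 26.6% were lower and 27.7% higher in DM, and 22.4% and 26.3% in GM. Kif3a was lower in both (-0.85 in DM, -0.53 in GM), and its second probe, ILMN_2621148, gave 0.26 and 0.06 and was not called.

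**Figure D4:**
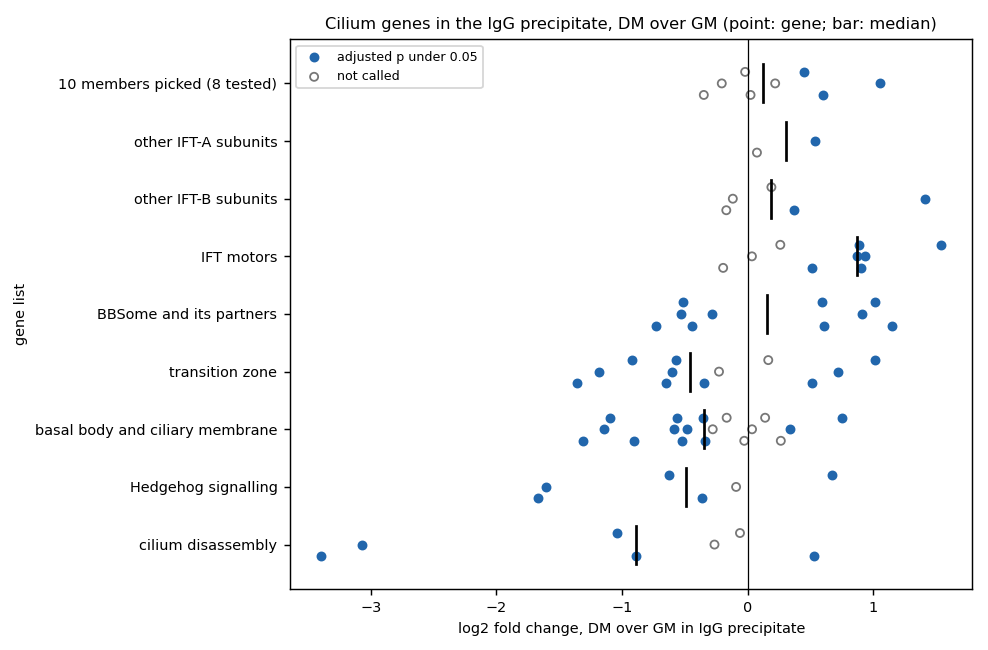
Log2 fold change of DM over GM in IgG precipitates (horizontal axis) for each tested gene of 9 lists, 1 row a list. Filled points passed an adjusted p of 0.05, open points did not, genes undetected in a whole group (Kif17, Traf3ip1, Bbs1, Gli3 and Hhip) stand at their fitted value, and the bar is the list's median, which is 0.87 for the motors, 0.12 for the 8 tested genes of the 10 and -0.89 for cilium disassembly.

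The other cilium lists were mixed or held more falls than rises in DM, as did all genes, of which 28.9% rose and 32.7% fell with anti-MYF5 and 29.5% rose and 34% fell with IgG. The BBSome is the coat that rides on IFT trains. Of 10 tested genes of the BBSome and its partners, 5 rose and 5 fell in DM with each antibody. Those that fell were Bbs1 and Ttc8 of the coat and the partners Mkks, Bbs12 and Rabl2. No IgG array in DM detected Bbs1, so its fall with IgG is known only as at least 1.11-fold. The second Mkks probe, ILMN_2814350, gave 0.08 with anti-MYF5 and -0.03 with IgG (adjusted p = 0.65 and 0.87). Bbs2 rose by 0.78 with anti-MYF5 and 1.15 with IgG. Of 12 transition zone genes 3 rose and 5 fell with anti-MYF5, and 3 rose and 7 fell with IgG. Of 18 basal body and ciliary membrane genes 3 rose and 8 fell with anti-MYF5, and 2 rose and 10 fell with IgG. Cep97 is counted as a rise with both antibodies by its probe with the highest mean, ILMN_2848828 (1.195 with anti-MYF5, 0.75 with IgG). Its other tested probes, ILMN_2750905 and ILMN_2750904, fell with both (-0.66 and -0.56 with anti-MYF5, -0.87 and -0.755 with IgG). Ccp110, which caps the centriole and holds back cilium growth, fell by 0.87 with anti-MYF5 and by 1.31 with IgG.

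Of 6 Hedgehog genes 1 rose and 5 fell with anti-MYF5, and 1 rose and 4 fell with IgG. Smo, the receptor that signals from the cilium, fell by 1.13 with anti-MYF5 and by 1.60 with IgG. Of 7 genes of cilium disassembly 4 fell with anti-MYF5, and 4 fell and 1 rose with IgG. Aurka and Plk1, mitotic kinases that also act in cilium disassembly, fell, with values of -3.77 and -3.58 with anti-MYF5 and of -3.40 and -3.07 with IgG.

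Over the 65 tested genes of these lists without an Ift symbol, anti-MYF5 over IgG was called lower for 16 and higher for 21 in DM, against 26.6% and 27.7% of all genes, and lower for 14 and higher for 18 in GM, against 22.4% and 26.3%. Their medians were 0.03 in DM and 0.04 in GM, against 0.02 and 0.04 over all genes. Of the 4 tested RFX and FOXJ1 regulators, 1 fell in DM with anti-MYF5, against 32.7% of all genes. The others passed with neither antibody.

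The 8 genes did not vary as 1 unit over the 16 arrays. The Pearson correlation of a gene with the mean of the other 7 was 0.94 for Ift20, 0.81 for Ift122, 0.76 for Ift27, 0.70 for Ift88, 0.47 for Ift81, 0.31 for Ift57, -0.38 for Ift52 and -0.51 for Ift80. Among the 28 pairs it ran between -0.51 and 0.81, with a median of 0.09. The 5 other genes whose probe followed the members' mean most closely over the 16 arrays were Urod (r = 0.985), Gstm5 (0.979), Scp2 (0.978), Mrpl24 (0.977) and Prdx2 (0.976). All these correlations are descriptions over arrays that share the 4 groups. Urod, a haem synthesis enzyme, averaged 10.53 with anti-MYF5 in DM, 11.85 with IgG in DM, 10.03 with anti-MYF5 in GM and 11.24 with IgG in GM (log2), the same order of groups as Ift20.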

How the data were processed

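RNA immunoprecipitates of C2C12 cells were hybridised to 16 bead arrays (Illumina, mouse). The deposited table gives, per the file headers, an intensity with its detection p-value for each of 25697 probes. Both came from GenomeStudio 2011.1, per the submitters' processing notes, without normalization between arrays. The second deposited file holds a unitless score, which equals the z-score of the log10 signal of an array to within 5.0e-10.

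Intensities were corrected by normexp with the background inferred from the detection p-values (offset 16), quantile normalized and log2 transformed (limma 3.58.1, R 4.3.3). Probes detected at p under 0.05 on at least 4 arrays were tested in 1 model of 4 groups (12 residual degrees of freedom, eBayes with an intensity trend). Array number limits the precision. Platform symbols were updated by Entrez identifier for 23962 probes and by accession for 9, and were kept for 7, while 23978 probes had 1 symbol, 0 several and 1719 none.

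The members and the gene lists were chosen with earlier results of these data known. All 10 members were named with every probe, as was every measured IFT subunit and motor. Other lists gave up to 3 called genes with the largest change per comparison, of which some are printed, and the 5 genes most alike in pattern were taken by Pearson correlation. A probe detected on no array of a group has a fold only as a lower bound, set against its own signal or the lowest detected one, whichever was higher. The fit was tested on simulated data. Alternatives were other background corrections, scalings, filters, variance models, fits on 2 groups, the deposited score, the mean over probes, the replicate number as a block and leaving out each array.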

Additional observations from a re-analysis of the deposited data

Results flagged for a closer look

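Within groups of 4 arrays, 2 of 52 held an array set apart from the other 3 by Dixon's criterion, and chance gives about 1 in 20. Ift27 probe ILMN_1215009 read 6.07 on anti-MYF5 DM replicate 4, in a group that otherwise began at 5.54. Ift122 read 7.44 on IgG GM replicate 4, in a group that began at 6.63. Without that array Ift122 rose in DM with IgG by 0.79.

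The DM minus GM difference of anti-MYF5 over IgG passed the test for 2 genes of the other cilium lists that were detected in all 4 groups. It was 1.14 for the transition zone gene Tmem107 (adjusted p = 0.012) on probe ILMN_3163211, whose other 2 probes gave 0.43 and 0.19 and did not pass. It was -0.51 for Plk1 (adjusted p = 0.046). It also passed for Traf3ip1, Kif17 and the multiciliated cell marker Dnaic1, whose sizes are not given, because no array of at least 1 group detected them.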

How the results depend on the processing

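Over 1040 recomputed values of the 39 tested member values, 1022 kept their side of the threshold, 10 lost the call, all of them Ift20 with anti-MYF5, and 8 gained one. No called value changed sign, while 43 uncalled ones did. Of 702 recomputed antibody values of the members 3 changed sign, a description, because the genes were picked on these values. The median anti-MYF5 over IgG of the 8 genes in DM (-0.34) became -0.44 with median scaling, -0.42 without scaling, -0.28 without background correction, -0.29 with an offset of 50, -0.49 as the mean over a gene's probes and -0.16 on the deposited z-scores, which have another unit. It ranged from -0.41 to -0.31 when 1 array was left out. In GM (-0.48) it became -0.24 with median scaling, -0.10 without scaling and -0.15 on the z-scores. The other cilium genes called lower in GM were 18 of 69, against 22.4% of all genes. Of the 18, 4 carry an Ift symbol and belong to the family picked on this comparison, so nothing is read from their calls. The count became 9 with median scaling and 6 without scaling, where the median of all genes lay at 0.19 and 0.32. The share of all genes called under these scalings is not given here. The member genes called in DM over GM with IgG, 3, became 5 without scaling and on the z-scores, with Ift80 and Ift88 added. The difference between media was called for 0 and, without scaling, for 1 (Ift122). It is made of the values the genes were picked on, so nothing is read from either count. The cause of these shifts was not tested. Same-numbered anti-MYF5 and IgG arrays of a medium correlated at 0.01 to 0.61 in their deviations, and same-numbered arrays of an antibody in the 2 media at -0.14 to 0.29. The labels do not say whether equal numbers are pairs. The numbers were not taken as pairs, although pairs within a medium remain possible. With the replicate number as a block the called members were 3 with IgG, 3 with anti-MYF5 and 0 for the difference, and no other call of a member changed. Cyclic loess, filters, the variance model and fits on 2 groups kept these counts within 1.5 times. Signals near background limit Ift57, Ift46, Ift74 and, with anti-MYF5, the second Ift27 probe.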

Other observations

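Among the markers of multiciliated cells, Rsph9, a radial spoke protein, was lower with anti-MYF5 by more than most members: -1.09 in DM (adjusted p = 1.3e-06) and -1.06 in GM (adjusted p = 1.7e-06). Rsph1, another radial spoke protein, gave -0.46 in DM (adjusted p = 0.016) and -0.75 in GM (adjusted p = 4e-04). Both were detected, Rsph9 on 16 arrays and Rsph1 on 15, while Tekt1, Dnah5, Ccdc39 and Ccdc40 were detected on none.

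Kif2a, a kinesin that takes microtubules apart and acts in cilium disassembly, was higher with anti-MYF5 in both media, by 0.76 in DM (adjusted p = 2.5e-05) and 0.63 in GM (adjusted p = 2.4e-04), and fell in DM by 0.75 with anti-MYF5 and by 0.89 with IgG (adjusted p = 1.9e-05 and 2.2e-06). These genes were chosen after their values were seen.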
